A study of Capra hircus with 9 samples.

Results

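The genes described here encode 6 antimicrobial proteins that glands release into saliva: lactoperoxidase (LPO), lactotransferrin (LTF), lysozyme C (LYZ), antileukoproteinase (SLPI), WAP four-disulfide core domain protein 2 (WFDC2) and deleted in malignant brain tumors 1 protein (DMBT1). They were chosen by name and found by RefSeq gene symbol or, for loci without a symbol, by product, and all transcripts of a gene were summed. The 6 names gave 7 genes of the 21228 in the table, because 2 loci, LOC102173761 and LOC102174044, carry the SLPI product. LYZ stands in RefSeq as S-LZ and DMBT1 as LOC102169730. The study sequenced RNA, after removal of ribosomal RNA, from submandibular glands of female Lubo goats aged 1, 12 and 24 months, to follow the gland through development. Each age had 3 goats raised under the same conditions, 1 library a goat, and the glands were removed after slaughter. The libraries held 11825357, 17586065 and 11546808 estimated counts at 1 month, 19274941, 21065278 and 18231894 at 12 months and 22477853, 24901065 and 22040776 at 24 months, in the order of their replicate numbers. Levels are given as CPM, counts scaled to normalised library size, and 3 counts, the floor used for detection, were worth 0.145 to 0.190 CPM. Transcript lengths were not used here, so levels were compared between libraries. Where a gene is called the most abundant or the highest of a list, this holds for CPM only, without regard to length.

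These proteins form part of the chemical defence of the mouth. Lactoperoxidase uses hydrogen peroxide, made by dual oxidases on the surface of duct cells, to oxidise thiocyanate to hypothiocyanite, which harms bacteria, while lysozyme cuts the bacterial cell wall and lactotransferrin withholds iron. SLPI inhibits neutrophil proteases, WFDC2 belongs to the same WAP domain family, and DMBT1 is a large scavenger receptor glycoprotein of saliva that binds and clumps bacteria.

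The tissue label was checked first, and the library labelled 1-month replicate 2 went against it. Its 9 acinar markers summed to 103 CPM, against 25144 and 17883 CPM in 1-month replicates 1 and 3 and 81840 to 166230 CPM in the older libraries. Its 9 thymus markers summed to 5465 CPM, with RAG1, a recombinase gene of developing lymphocytes, the most abundant at 4237 CPM. Thymus markers were also present in the other 1-month libraries, at 2108 CPM in replicate 1 and 904 CPM in replicate 3, and summed to only 1.24 to 3.32 CPM in the 12- and 24-month libraries. Age and the presence of thymus transcripts therefore cannot be told apart in comparisons with 1 month. Tests and list counts with the 1-month group are given with and without replicate 2, other scalings and single alternatives with all libraries.

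Other marker lists also varied. The 18 neutrophil markers summed to 1792 CPM in 1-month replicate 3, with S100A12 the most abundant at 334 CPM, against 62.7 and 111 CPM in 1-month replicates 1 and 2 and 6.98 to 25.7 CPM later. The 11 macrophage markers, led there by C1QB, reached 2086 CPM in 1-month replicate 3, against 562 and 647 CPM in the other 1-month libraries and 187 to 319 CPM later. That library was the highest of the 9 for both lists. It also held PTH, the parathyroid hormone gene, at 647 CPM, against at most 0.370 CPM in any other library. The 11 lymphocyte markers summed to 1451, 6449 and 1067 CPM at 1 month and 34.7 to 56.6 CPM later. The 10 duct markers summed to 1147, 152 and 637 CPM at 1 month and 2680 to 9295 CPM later, and the 8 pan-epithelial genes to 829, 631 and 582 CPM at 1 month and 1874 to 2559 CPM later. Epithelial RNA thus held a smaller share of every 1-month library than of any older one. The 7 skeletal muscle markers were highest in 12-month replicate 2, at 65.0 CPM with ACTA1 leading, and in 1-month replicate 1, at 37.5 CPM, and were at most 9.07 CPM elsewhere.

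**Figure D1:**
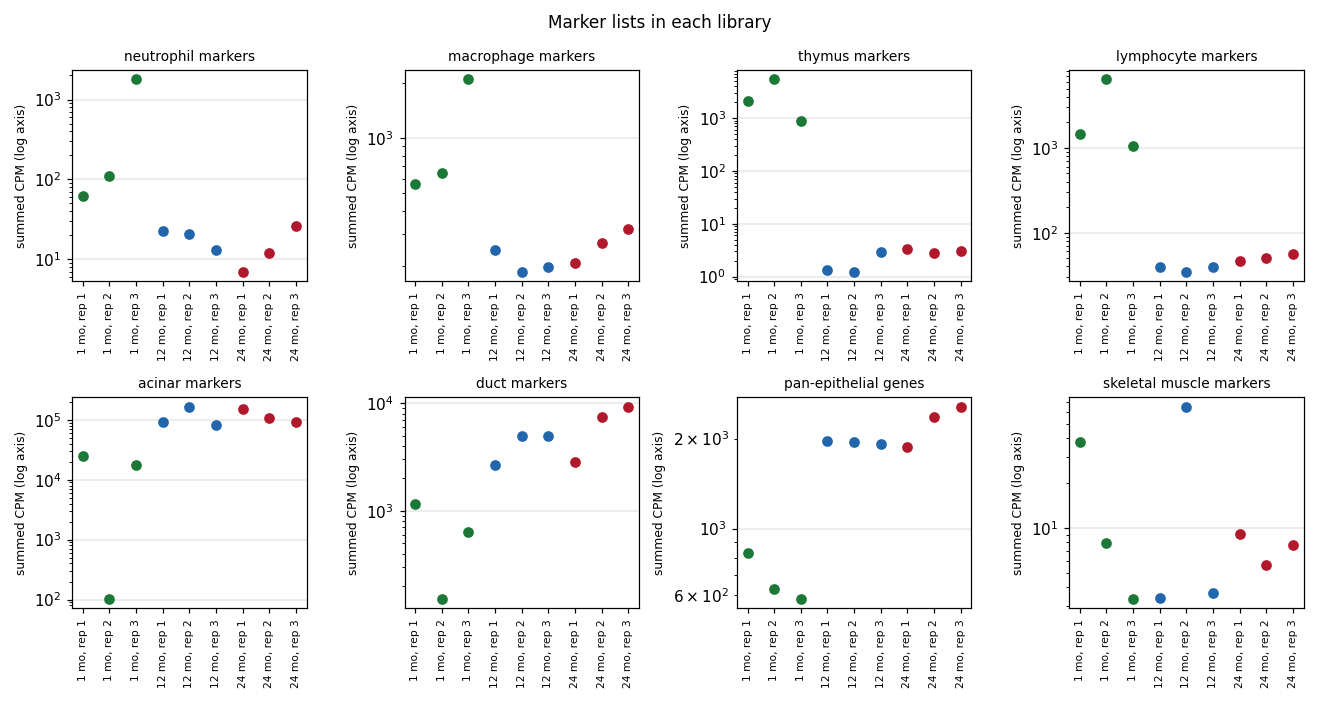
Summed CPM of 8 marker lists (vertical log axes) in each of 9 libraries (horizontal axes, by age and replicate); each point is 1 library, green for 1 month, blue for 12 and red for 24 months. The 1-month replicate 2 point lies lowest for acinar markers, at 103 CPM, and highest for thymus markers, at 5465 CPM.

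LPO, the peroxidase of the group, stood at 174, 9.73 and 98.1 CPM in 1-month replicates 1 to 3. At 12 months it stood at 9640, 6257 and 4347 CPM, and at 24 months at 6622, 9057 and 22663 CPM. Every older library lay above every 1-month library, with or without 1-month replicate 2, whereas the 12- and 24-month libraries overlapped. The group means were 93.9 ± 82.1 CPM at 1 month, 6748 ± 2680 CPM at 12 months and 12781 ± 8644 CPM at 24 months (SD, n = 3 each). In bulk tissue, fewer cells of a type and less RNA per cell cannot be told apart.

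LPO rose between 1 and 12 months by 6.25 ± 1.14 on the log2 scale (SE; edgeR quasi-likelihood test, Benjamini-Hochberg adjusted p = 0.0155), a 71.9-fold ratio of means. Leaving out 1-month replicate 2, the rise was 5.64 ± 0.53 (edgeR adjusted p = 0.000988), a ratio of 49.6. Between 1 and 24 months LPO rose by 7.23 ± 1.29 (edgeR adjusted p = 0.0102), and by 6.65 ± 0.77 without 1-month replicate 2 (edgeR adjusted p = 0.000504). Libraries were also scaled to the pan-epithelial genes, which lowered the median log2 change of all genes to -2.25 and -2.50 in these comparisons. With this scaling LPO rose by 4.59 and 5.25 (edgeR adjusted p = 0.0098 and 0.0031). In 1-month replicate 2 the scaling genes summed to 631 CPM, although its acinar markers summed to 103 CPM. The scaling thus did not follow acinar RNA there, and it was not run without that library. The call between 1 and 12 months was lost when 1-month replicate 3 (edgeR adjusted p = 0.0511) or 12-month replicate 1, 2 or 3 was left out (edgeR adjusted p = 0.0633, 0.0695 and 0.0654), with changes from 5.92 to 6.49. Between 1 and 24 months it was lost without 24-month replicate 3 (change 6.54, edgeR adjusted p = 0.0529).

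LPO had 6 transcripts, 5 known and 1 newly assembled, not all of which held counts. A single known transcript held 80.5%, 21.3% and 68.1% of the gene's counts at 1 month, 30.3%, 55.0% and 65.9% at 12 months and 55.0%, 31.4% and 25.7% at 24 months. The newly assembled transcript held 0%, 72.1% and 12.8% at 1 month, 52.9%, 25.5% and 23.7% at 12 months and 32.6%, 20.5% and 39.0% at 24 months. These shares differed between goats of 1 age as much as between ages, and shares at this level rest on how the quantification divided reads among overlapping transcripts. The curated RefSeq transcript was at 0 in every library. With known transcripts alone LPO rose by 5.56 and 6.53 in the 2 comparisons with 1 month (edgeR adjusted p = 0.0397 and 0.0239).

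LYZ, the bacterial cell wall hydrolase, was close to the floor in this gland. It stood at 0.332, 0.282 and 5.63 CPM at 1 month, 0.123, 0.385 and 0.393 CPM at 12 months and 0.291, 0 and 0.620 CPM at 24 months. The only library above 1 CPM was 1-month replicate 3, the library richest in neutrophil and macrophage markers and in PTH. The part of these cells or of other tissue in the value was not tested. LYZ did not pass the low-count filter in any comparison of all libraries. Once 1-month replicate 2 was left out it entered the 1- and 24-month comparison, at a change of -3.20 ± 1.29 (edgeR adjusted p = 0.0892).

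Goats carry several lysozyme C genes, and in the RefSeq gene order 9 of them, S-LZ included, follow one another. None of the other 8 exceeded 2.61 CPM in any library, and 2 of them, LOC102186462 and LOC102185900, were at 0 throughout. The highest was LOC108633237, at 0.671, 0.211 and 0.776 CPM at 1 month, 2.61, 0.993 and 0.790 CPM at 12 months and 0.706, 0.848 and 0.981 CPM at 24 months. The 12-month libraries lay just above the 1-month ones, and the 24-month libraries overlapped with both. For LOC102171764, LOC102172037 and LOC108636006 all 1-month libraries lay above all older ones. The 1-month values were 0.222 to 0.481, 0.222 to 2.25 and 0.259 to 0.881 CPM, against up to 0.116, 0.116 and 0.155 CPM later. Their lowest 1-month counts were 3.51, 3.54 and 4.13, close to the floor of 3, so these separations rest on few counts. An unnamed new lysozyme C transcript reached 2.17 CPM in 12-month replicate 1 and 1.15 CPM in 12-month replicate 2. Near-identical copies can share reads, so the split among these loci is uncertain, but each was low.

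LTF, the iron-binding protein, was high in 1 library of each age. It stood at 6.58, 11.5 and 390 CPM at 1 month, 299, 12.6 and 6.73 CPM at 12 months and 11.8, 10.9 and 185 CPM at 24 months. The high libraries were 1-month replicate 3, 12-month replicate 1 and 24-month replicate 3, and the others lay between 6.58 and 12.6 CPM at every age, so the ages overlapped. The SD exceeded the mean at each age, at 136 ± 220, 106 ± 167 and 69.2 ± 100 CPM (n = 3 each).

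LTF did not pass between any ages. The fitted changes were -0.28 ± 1.82 between 1 and 12 months, -0.83 ± 1.55 between 1 and 24 months and -0.57 ± 1.36 between 12 and 24 months (edgeR adjusted p = 0.921, 0.743 and 0.824). Without 1-month replicate 2 the first 2 were -0.90 ± 1.87 and -1.43 ± 1.39 (edgeR adjusted p = 0.72 and 0.466). The sign between 1 and 12 months was not stable: the change was 3.56 without 1-month replicate 3, 0.26 and 0.29 without 12-month replicates 2 and 3 and -3.69 without 12-month replicate 1. With scaling to the pan-epithelial genes LTF passed between 1 and 24 months, at -3.14 (edgeR adjusted p = 0.0337), against the median of all genes of -2.50.

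Neutrophil granules also hold lactotransferrin, so the 18 neutrophil markers were set beside it. In 1-month replicate 3 all 18 were above the floor, with MPO, the granule peroxidase, at 302 CPM and ELANE, neutrophil elastase, at 26.6 CPM. In 12-month replicate 1 MPO was at 0 and ELANE at 0.329 CPM, and in 24-month replicate 3 they were at 0.671 and 1.45 CPM. In both libraries 9 of the 18 markers were at 0 and BPI was the most abundant, at 14.3 and 20.2 CPM, but 9 were also at 0 in 12-month replicate 2 and 24-month replicates 1 and 2, where LTF was low. Among the 6 older libraries these 2 had the highest neutrophil sums, 22.3 and 25.7 CPM, though BPI made up most of each sum and was at 17.6 CPM in 12-month replicate 2 as well. The granulocyte calcium-binding protein genes S100A12, S100A8 and S100A9 were highest of the 6 in these 2, at 3.17 and 1.60, 0.783 and 0.620, and 0.700 and 0.361 CPM. CXCR2, a chemokine receptor, was highest of the 6 in 12-month replicate 1, at 1.57 CPM, and lowest in 24-month replicate 3, at 0.207 CPM. The part of neutrophils in the LTF values was not tested.

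**Figure D2:**
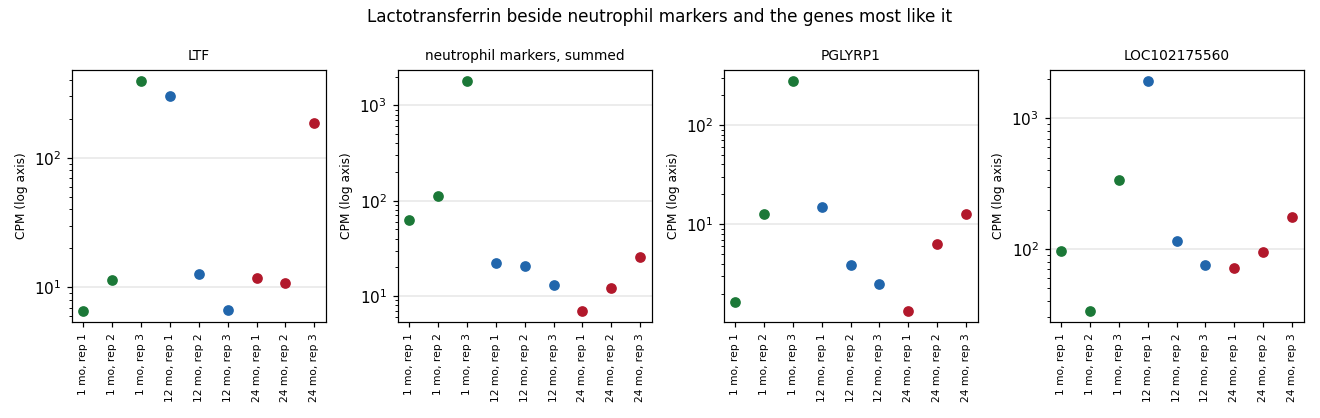
CPM (vertical log axes) of LTF, of the summed neutrophil markers and of PGLYRP1 and LOC102175560 in each library (horizontal axes); each point is 1 library, coloured by age. LTF is high in 3 libraries, at 390, 299 and 185 CPM, whereas the neutrophil sum is high in 1 of them, at 1792 CPM.

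SLPI, the inhibitor of neutrophil elastase and cathepsin G, was detected chiefly at 1 month. LOC102174044 stood at 3.70, 21.4 and 2.22 CPM at 1 month, 0, 0.110 and 0.0438 CPM at 12 months and 0, 0 and 0.258 CPM at 24 months. All 1-month libraries lay above all older ones, and the highest value was in 1-month replicate 2, the library with most thymus transcripts, whose part in the value was not tested. LOC102173761, its direct neighbour in the RefSeq order, stood at 0, 0.670 and 7.85 CPM at 1 month and was under the floor in every older library. Here 1-month replicate 3, the library richest in neutrophil markers and PTH, was the highest, so the 2 loci did not peak in the same library. Reads may be shared between these copies, and their separate values are uncertain to that extent.

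LOC102174044 fell between 1 and 12 and between 1 and 24 months (edgeR adjusted p = 0.017 and 0.0191; 0.00354 and 0.0135 without 1-month replicate 2). Its counts were 503 at 1 month, 3 at 12 months and 5 at 24 months over the libraries of each age. Per library size that is a ratio of 181 between 1 and 12 months (95% exact counting interval 61.7 to 882) and 116 between 1 and 24 months (49.2 to 357). With 1-month replicate 2 left out, the ratios were 54.3 (18.0 to 268) and 34.6 (14.3 to 109). The intervals cover counting error only. The fitted log2 changes of -7.20 ± 1.36 and -6.55 ± 1.45 depend on the prior count and are not bounds. The first call was lost without 12-month replicate 1, 2 or 3 (fitted changes -6.66, -8.04 and -7.18, edgeR adjusted p = 0.0734, 0.0766 and 0.0846), and the second without 24-month replicate 1, 2 or 3 (-6.00, -5.99 and -10.35, edgeR adjusted p = 0.0646, 0.0763 and 0.0631). LOC102173761 did not pass the filter with all libraries. It was tested and lower at 24 months when 1-month replicate 1 was left out (edgeR adjusted p = 0.0162), but not when 1-month replicate 2 was.

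WFDC2, the other WAP domain protein, stood at 73.9, 0.811 and 60.7 CPM at 1 month, 182, 158 and 150 CPM at 12 months and 158, 337 and 420 CPM at 24 months. Every older library exceeded every 1-month library, and 24-month replicate 1 lay within the range of the 12-month group. The low value was that of 1-month replicate 2. Both transcripts of the gene took part, the newly assembled one holding 31.0% to 49.4% of its counts in each library.

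With all libraries WFDC2 did not pass, at 1.94 ± 1.16 between 1 and 12 months and 2.91 ± 1.18 between 1 and 24 months (edgeR adjusted p = 0.25 and 0.118). Without 1-month replicate 2 it rose by 1.28 ± 0.16 and 2.28 ± 0.46 (edgeR adjusted p = 0.00213 and 0.00717), ratios of means of 2.43 and 4.53. In the edgeR quasi-likelihood test the call in both comparisons thus depended on whether that library was included. With all libraries WFDC2 did pass between 1 and 24 months in the DESeq2 Wald test (DESeq2 adjusted p = 0.0175) and in the edgeR exact test (edgeR adjusted p = 0.0469). Relative to the pan-epithelial genes the changes were 0.32 and 0.97 (edgeR adjusted p = 0.775 and 0.334).

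DMBT1, the bacteria-binding scavenger receptor protein, stood at 462, 17.3 and 961 CPM at 1 month, 402, 220 and 359 CPM at 12 months and 290, 118 and 220 CPM at 24 months. With 1-month replicate 2 the ages overlapped, and without it both 1-month libraries lay above all older ones. The 12- and 24-month groups overlapped.

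DMBT1 did not pass with all libraries, at -0.46 ± 1.07 between 1 and 12 months and -1.06 ± 1.03 between 1 and 24 months (edgeR adjusted p = 0.767 and 0.5). Without 1-month replicate 2 the first change was -1.12 ± 0.37 (edgeR adjusted p = 0.0509), and the second passed, with DMBT1 lower at 24 months by 3.40-fold of means (-1.67 ± 0.45, edgeR adjusted p = 0.0217). Without 1-month replicate 3 in place of replicate 2 this change was -0.12 (edgeR adjusted p = 0.955). Scaled to the pan-epithelial genes it also passed between 1 and 24 months, at -3.00 (edgeR adjusted p = 0.0208), near the median of all genes of -2.50. The gene's 3 newly assembled transcripts held most of its counts: 1 of them alone held 63.2% to 77.5% in each library, whereas the known transcript held at most 9.61%. A second locus with a DMBT1-like product, LOC102170020, was at 0 in every library.

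**Figure D3:**
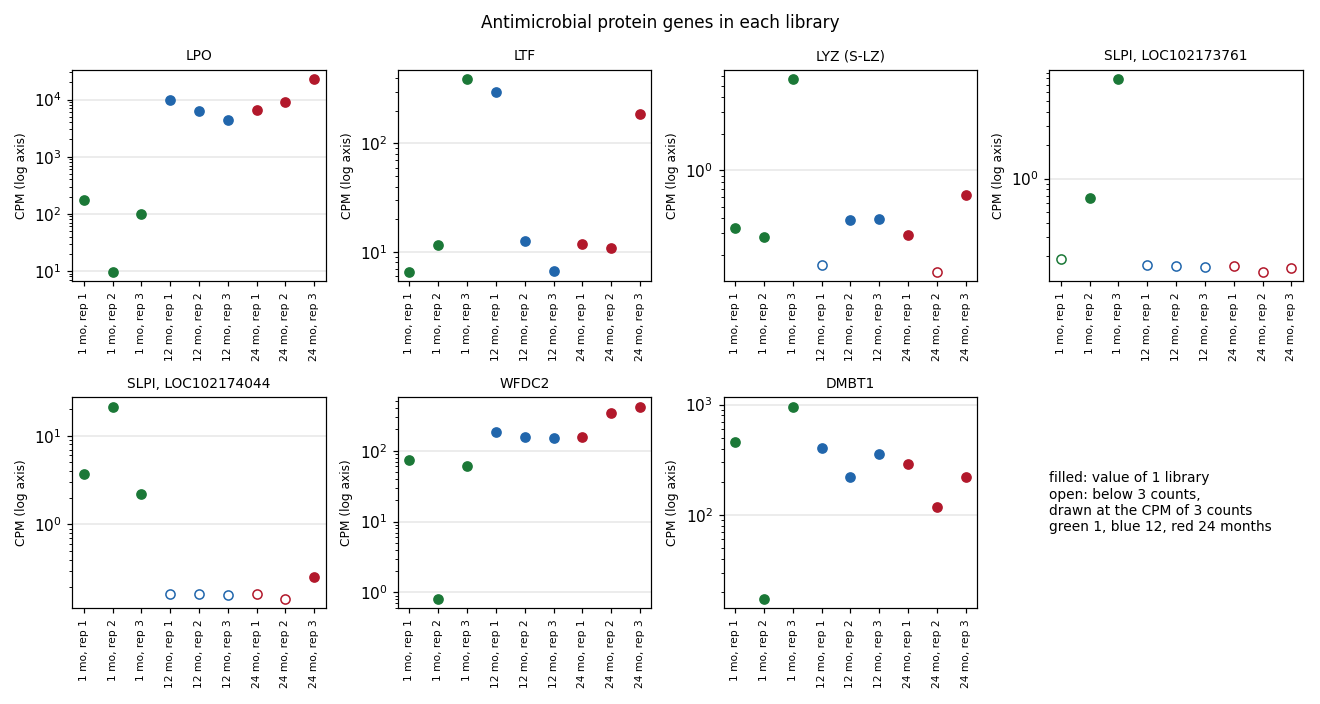
CPM of the 7 genes (vertical log axes) in each of 9 libraries (horizontal axes); filled points are single libraries, and open points lie under 3 counts and are drawn at the CPM of 3 counts. LPO rises from at most 174 CPM at 1 month to at least 4347 CPM later, LTF is high in 1 library of each age, and LOC102174044 is detected at 1 month and near the floor later.

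Between 1 and 12 months 5 of the 7 genes passed the low-count filter, and 2 of these passed the test, LPO upwards and LOC102174044 downwards. Of all 14688 genes tested 18.9% passed, 6.79% upwards and 12.1% downwards, and 11.9% passed with an absolute log2 change over 2 as well. When 1-month replicate 2 was left out the count was 3 of 5, WFDC2 being added, beside 44.6% of 14982 genes, 21.7% upwards and 22.9% downwards. The median log2 change of the tested members was -0.28 with all libraries and -0.90 without that replicate, and that of all genes -0.02 and -0.01, and single members moved far in opposite directions. No member passed when 12-month replicate 1, 2 or 3 was left out (0 of 6 tested each), and of all genes only 125 of 15103, 142 of 15105 and 134 of 15132 did in these fits.

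Between 1 and 24 months, a comparison that shares its 1-month libraries with the first, 2 of 5 tested members passed, again LPO and LOC102174044. The background was 18.3% of 14748 genes, 7.41% upwards and 10.9% downwards, and 13.8% passed with an absolute log2 change over 2 as well. With 1-month replicate 2 left out the count was 4 of 6, LPO and WFDC2 upwards and LOC102174044 and DMBT1 downwards, beside 29.4% of 15125 genes, 14.5% upwards and 15% downwards (14.6% with the log2 change over 2). The median of the tested members was -0.83 with all libraries and -1.55 without that replicate, and that of all genes -0.01 and 0.05. Without 24-month replicate 3 the count was 0 of 6, beside 331 of 15069 genes, and it was 1 of 6 without 24-month replicate 1 or 2, beside 1685 of 15076 and 611 of 15099 genes. With so few members these counts were not read as a difference from the background.

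Between 12 and 24 months 0 of 4 tested members passed, and 0 of all 14108 genes did, a background of 0%. At an unadjusted p under 0.05 edgeR counted 1 member, WFDC2, and 1625 genes. At an adjusted p under 0.05 DESeq2 and the edgeR exact test called 0 members, and 25 and 24 genes. The changes were 0.96 ± 0.47 for LPO, 0.95 ± 0.34 for WFDC2 and -0.61 ± 0.35 for DMBT1 (edgeR adjusted p = 0.418, 0.418 and 0.433). Without 24-month replicate 1 LPO and WFDC2 passed, at 1.27 and 1.26 (edgeR adjusted p = 0.0488 and 0.00786), beside 33.3% of 14372 genes, 18.6% upwards and 14.7% downwards. That library had the lowest duct marker sum of its group, at 2823 CPM against 7410 and 9295 CPM, and the part of this difference was not tested.

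**Figure D4:**
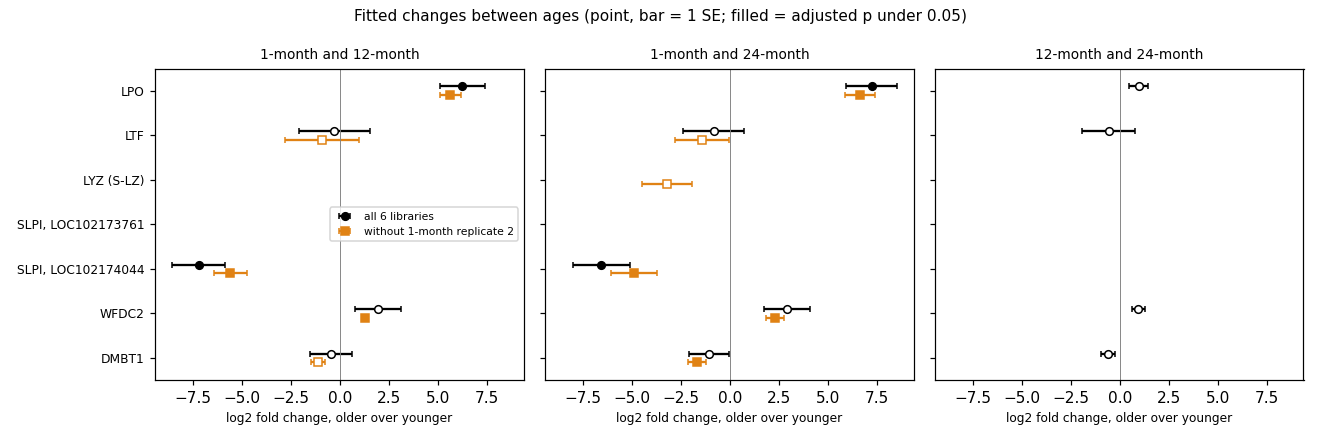
Fitted log2 fold changes (horizontal axes, older over younger) of the 7 genes in 3 comparisons, with bars of 1 SE; circles use all 6 libraries, squares leave out 1-month replicate 2, and filled symbols have an adjusted p under 0.05. LPO lies at 6.25 and 7.23 in the comparisons with 1 month, and WFDC2 passes there without that replicate.

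Genes of the lactoperoxidase system, among them the oxidases that supply it and other peroxidases, moved in both directions. Of the 10 listed genes 7 were tested, and between 1 and 12 months 1 passed upwards and 1 downwards; between 1 and 24 months 3 passed upwards and 1 downwards, beside 18.9% and 18.3% of all genes. The list's median log2 change was 2.01 and 1.83, beside -0.02 and -0.01 over all genes. The counts without 1-month replicate 2 were 3 upwards and 2 downwards, then 4 upwards and 2 downwards, beside 44.6% and 29.4% of all genes, with medians of 1.39 and 1.25 beside -0.01 and 0.05 over all genes. Between 12 and 24 months 0 of 6 passed, at a median of 0.58 beside 0.04.

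DUOX2, an oxidase that makes hydrogen peroxide, stood at 14.5, 1.59 and 7.93 CPM at 1 month, 80.7, 37.3 and 48.4 CPM at 12 months and 92.3, 83.3 and 173 CPM at 24 months. Its 1-month libraries lay below all others, and it rose by 2.87 ± 0.75 and 3.99 ± 0.77 (edgeR adjusted p = 0.0413 and 0.0131), or by 2.31 and 3.46 without 1-month replicate 2. DUOXA2, its maturation factor, stood at 1.04, 0 and 1.05 CPM at 1 month, 17.4, 3.96 and 6.86 CPM at 12 months and 10.1, 13.3 and 22.7 CPM at 24 months. Like DUOX2 it did not overlap between 1 month and later, and it rose between 1 and 24 months by 4.62 ± 1.02 (edgeR adjusted p = 0.0192), or by 3.98 without 1-month replicate 2 (edgeR adjusted p = 0.00113). DUOX1, the other dual oxidase, also passed between 1 and 24 months, at 3.40 ± 0.72 (edgeR adjusted p = 0.0168), or at 3.22 without that replicate (edgeR adjusted p = 0.016). The iodide carrier SLC5A5, which also moves thiocyanate, did not pass, at 1.41 and 1.83 (edgeR adjusted p = 0.257 and 0.224; 0.316 and 0.296 without that replicate).

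MPO, which lies directly beside LPO in the RefSeq gene order, went the other way. It stood at 1.63, 15.2 and 302 CPM at 1 month, 0, 0.220 and 0.350 CPM at 12 months and 0, 0.113 and 0.671 CPM at 24 months. It fell between 1 and 12 and between 1 and 24 months (edgeR adjusted p = 0.0367 and 0.027; 0.0151 and 0.00636 without 1-month replicate 2), and its highest level was in 1-month replicate 3, the library richest in neutrophil markers. EPX, the eosinophil peroxidase of the same neighbourhood, was at 0 in all libraries.

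**Figure D5:**
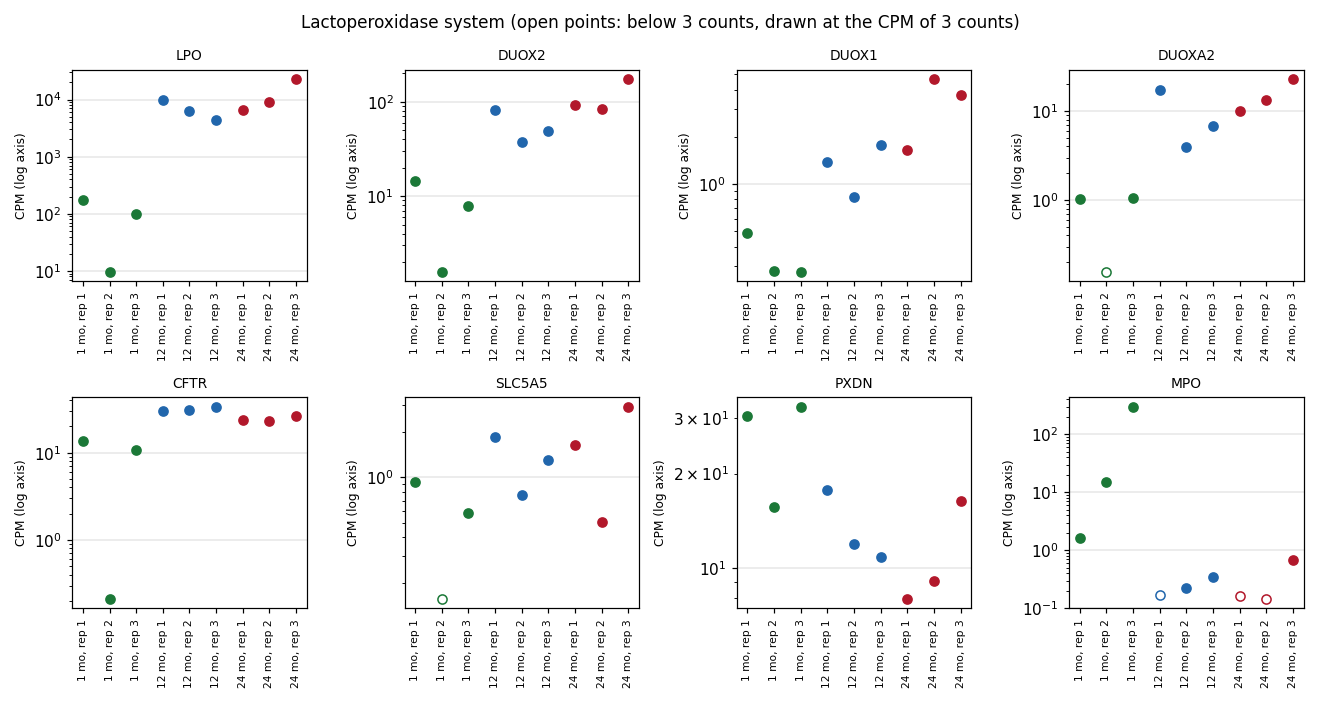
CPM (vertical log axes) of LPO and 7 genes of the lactoperoxidase system in each library (horizontal axes), coloured by age; open points lie under 3 counts and are drawn at the CPM of 3 counts. LPO and DUOX2 lie lowest at 1 month, whereas MPO is highest there, at 302 CPM in replicate 3.

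The families of the other members were taken next. In the SRCR domain list, to whose family DMBT1 belongs, 5 of 10 tested genes passed downwards between 1 and 12 months and 6 between 1 and 24 months, 0 upwards, beside 12.1% and 10.9% of all genes downwards. The counts without 1-month replicate 2 were 8 and 8, beside 22.9% and 15% downwards. Its medians were -4.32 and -3.82, or -2.12 and -2.35 with genes absent from the older group set at their bound, beside -0.02 and -0.01 over all genes. Leaving out that replicate they were -3.63 and -3.09, or -2.24 and -2.58 with genes at their bound, beside -0.01 and 0.05. The genes that passed included the lymphocyte receptors CD5 and CD6 and the macrophage genes CD5L and CD163, and the summed lymphocyte and macrophage markers were likewise high at 1 month. CD5 stood at 59.7, 510 and 50.3 CPM at 1 month and at 0.934 to 3.00 CPM later, and CD5L at 42.8, 43.0 and 317 CPM and at 0 to 1.10 CPM later. The part of these cell types in the counts was not tested.

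In the WAP domain and protease list 6 of 16 genes found were tested, and 0 passed upwards and 2 downwards between 1 and 12 months, WFIKKN2, a WAP and Kunitz domain protein, and ELANE, beside 12.1% of all genes downwards. Between 1 and 24 months WFIKKN2 alone passed, downwards, beside 10.9%, and the list medians were -0.53 and -0.71 beside -0.02 and -0.01 over all genes. Leaving out 1-month replicate 2 gave 2 downwards in each, beside 22.9% and 15%, at medians of -0.93 and -1.07 beside -0.01 and 0.05. WFIKKN2 stood at 5.88, 11.6 and 8.46 CPM at 1 month, 0.0871 to 0.412 CPM at 12 months and 0.679 to 1.16 CPM at 24 months. EPPIN, WFDC8 and WFDC9, WAP domain genes 2 to 4 places after WFDC2 in the RefSeq order, were at 0 in every library, and PI3, the elafin gene beside the SLPI loci, was at most 0.423 CPM.

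Of the iron-handling list 7 genes were tested and 0 passed with all libraries in the comparisons with 1 month, beside 18.9% and 18.3% of all genes, at medians of -0.54 and 0.10 beside -0.02 and -0.01. The medians without 1-month replicate 2 were -0.48 and -0.24, beside -0.01 and 0.05 over all genes, and 2 of 7 passed in each, beside 44.6% and 29.4%. In these fits TF, the serum transferrin, and SLC40A1, the iron exporter ferroportin, fell in both, by 2.80 and 1.12 between 1 and 12 months and by 2.79 and 1.39 between 1 and 24 months (edgeR adjusted p = 0.00702, 0.0077, 0.0045 and 0.0142). In the lysozyme family list 1 of 8 genes was tested, LYG2, a goose-type lysozyme, which stood at 5.36, 0.634 and 3.72 CPM at 1 month, 7.54, 14.8 and 11.4 CPM at 12 months and 10.6, 11.9 and 7.44 CPM at 24 months. It did not pass with all libraries (edgeR adjusted p = 0.104 and 0.113) and rose between 1 and 12 months without 1-month replicate 2, by 1.31 (edgeR adjusted p = 0.0279), but not between 1 and 24 months (edgeR adjusted p = 0.0593).

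Of the other secreted defence genes 2 of 12 tested passed with all libraries in each comparison with 1 month, beside 18.9% and 18.3% of all genes, the cystatin CST6 upwards, by 2.97 and 3.69, and the complement factor CFB downwards, at -3.46 and -3.14 (edgeR adjusted p from 0.0117 to 0.0264), and the list medians were 0.88 and 1.07 beside -0.02 and -0.01 over all genes. Without that replicate 7 passed between 1 and 12 months, 6 of them upwards, and 8 between 1 and 24 months, 5 upwards, beside 44.6% and 29.4% of all genes, at medians of 0.82 and 0.90 beside -0.01 and 0.05. CST6 then rose by 2.58 and 3.35, and CFB was at -3.97 and -3.61 (edgeR adjusted p from 0.00146 to 0.00908). PIGR, the carrier of IgA into saliva, and the zinc-binding glycoprotein AZGP1 were among these, PIGR standing at 831, 4.72 and 1007 CPM at 1 month and at 8907 to 16361 CPM later. The lipocalin LCN2 and the peptidoglycan receptor PGLYRP1 were highest in 1-month replicate 3, at 60.6 and 276 CPM. Over all these lists 11 of 43 tested genes passed between 1 and 12 months, 2 upwards and 9 downwards, and 13 of 43 between 1 and 24 months, 4 upwards and 9 downwards. The first count was 25 without 1-month replicate 2, 6 without 1-month replicate 3 and 1, 0 and 1 without 12-month replicates 1 to 3, and the second 26 without 1-month replicate 2 and 7, 4 and 0 without 24-month replicates 1 to 3. The counts over all genes moved in the same fits, from 2776 to 6685, 1824, 125, 142 and 134 in the first comparison and from 2698 to 4450, 1685, 611 and 331 in the second. Between 12 and 24 months 0 of the 39 tested genes of all these lists passed in edgeR, beside 0 of all 14108 genes. At an unadjusted p under 0.05 edgeR counted 9 of the 39, beside 1625 of all genes. In DESeq2 and the edgeR exact test 0 list genes passed, beside 25 and 24 of all genes. Without 24-month replicate 1 edgeR passed 7 list genes, beside 33.3% of 14372 genes.

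The genes most like each member were taken among 9668 genes with a mean of at least 10 CPM, by the smallest root mean square difference of centred log2(CPM + 1) over the 9 libraries. For LPO these were LOC102182869, a lung-type amine oxidase (0.80), IGHA1, the IgA heavy chain (0.81), and CDH16, a cadherin (1.18), and the same 3 came first without 1-month replicate 2. For LTF they were LOC102175560, the protease inhibitor alpha-2-macroglobulin (1.37), PGLYRP1 (1.39) and LOC102173569, a vascular non-inflammatory molecule (1.51), again the same 3 without that library. LOC102175560 stood at 1924 CPM in 12-month replicate 1 and at 33.6 to 338 CPM elsewhere.

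For WFDC2 the nearest were the transcription factor gene PITX1 (0.17), the serine protease gene PRSS8 (0.22) and the transcription factor gene SPDEF (0.27), and for DMBT1 SDPR (0.52), OGN (0.55) and RND3 (0.64). None of these 6 remained among the nearest 3 without 1-month replicate 2, where NPDC1, B3GALT4 and ST14 were nearest to WFDC2 and SYNE1, PHACTR2 and CHORDC1 to DMBT1. For LOC102174044 they were BCL7A (0.13), MCM7 (0.19) and PHC1 (0.20), of which BCL7A remained. The added 1 flattened the range of LOC102174044, which was at most 0.258 CPM in the older libraries, so these likenesses say little about its course, and LYZ and LOC102173761 were too low for their nearest genes to be informative. Ranked by Pearson correlation over the 9 libraries, the nearest 3 were all different for LPO, LTF and DMBT1. They were TTC17, CA3 and PDZK1IP1 for LPO, ADAMTSL4, PIEZO1 and FMOD for LTF, and LOC102169353, ZCCHC24 and DDR2 for DMBT1. PITX1 and PRSS8 for WFDC2 and BCL7A for LOC102174044 were among the nearest 3 by both measures. These likenesses describe 9 libraries that share depth and tissue composition and were given no test.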

How the data were processed

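The authors sequenced ribosome-depleted, strand-specific libraries, removed remaining ribosomal reads with Bowtie2 2.2.8, mapped with TopHat2 2.1.1 and built transcript models in Cufflinks. All deposited values are estimated counts (expected counts) per transcript, which the authors made with RSEM for 42686 known and 10053 new transcripts in 9 libraries, neither depth nor length normalised. The genome build was not given in the sources used here. Of the known transcripts 99.9% matched a gene in the RefSeq table (ARS1.2), used for names and gene order only, and 21 loci were named by product after the data were examined. Counts were summed to genes and rounded. Each pair of ages was fitted alone (3 against 3 libraries) with edgeR 4.0.16 in R 4.3.3: low-count filter, TMM normalisation, quasi-likelihood test and Benjamini-Hochberg adjustment over all genes, passing at an adjusted p under 0.05. The SE of an edgeR log2 change was not estimated by the fit itself. It was derived as the absolute change divided by the square root of the quasi-likelihood F statistic. CPM used TMM library sizes over 9 libraries, with factors from 0.819 to 1.37. The smallest library held 11546808 counts and the largest 24901065, and the floor of 3 counts covers counting error only. Counting intervals of ratios are exact binomial (Clopper-Pearson, 95%) from scipy 1.17.1 on rounded pooled counts. The fits were tested on simulated data, whose outcome is not reported here. Alternatives were other scalings, DESeq2 1.42.0, the edgeR exact test, no low-count filter, all 9 libraries in 1 fit, known transcripts only, a fold threshold, a replicate block and leaving out each library. The likeness without 1-month replicate 2 was chosen after seeing the data. The members and lists were chosen with earlier results of these data known. Of 72 list genes 4 were not found, and 1 further gene of the lactoperoxidase list is not reported here. Named genes were the members, the list genes and genes among the 3 most like a member by root mean square difference or Pearson correlation. Lists received no test.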

Additional observations from a re-analysis of the deposited data

How the results depend on the processing

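The counts of members that passed, 2, 2 and 0 in the comparisons of 1 with 12, 1 with 24 and 12 with 24 months, were within 1.5 times of these under the other scalings, tests, filter, transcript and call rule settings, except that 4 members passed between 1 and 24 months with scaling to the pan-epithelial genes. Leaving out each library in turn gave 0 to 3, 0 to 4 and 0 to 2 members, and 0 to 25, 0 to 26 and 0 to 7 functional list genes. The functional list counts were 11, 13 and 0 with all libraries. With pan-epithelial scaling they became 30 and 29 in the first 2 comparisons, 0 and 2 upwards and 30 and 27 downwards. Of all genes 10854 of 14688 and 10459 of 14748 passed in these fits, 75 upwards in each. Between 1 and 12 months the list counts were 17 with the DESeq2 Wald test and 18 with the edgeR exact test. Of all genes 4741 and 4221 passed in these tests, against 2776 in the main fit. The causes of these differences were not tested.

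Replicate numbers are shared across ages, but the goats were separate animals. Same-numbered libraries deviated with correlations of -0.13, -0.13 and -0.11 between 1 and 12 months, 0.43, 0.21 and -0.23 between 1 and 24 months and -0.10, -0.16 and -0.01 between 12 and 24 months, so the numbers were not taken as pairs. With the replicate number as a block 2, 2 and 0 members and 7, 13 and 0 list genes passed. Of all genes 1030 of 14688, 2403 of 14748 and 13 of 14108 did, against 2776, 2698 and 0 in the main fits. Under the block the changes between 1 and 12 months turned to 0.10 for LTF and 0.53 for DMBT1. Across the fits that leave out 1 library, LTF ran from -3.69 to 3.56, -3.42 to 2.99 and -3.22 to 2.84 in the 3 comparisons, and DMBT1 from -1.12 to 0.45 between 1 and 12 months and from -1.67 to -0.12 between 1 and 24 months, where it was -0.05 under the block, while LPO kept its direction in all of them, from 5.64 to 6.97, 6.54 to 7.98 and 0.22 to 1.27. DESeq2 gave LTF no adjusted p. Depth limits LYZ, which had 0 to 12 counts in every library but 1-month replicate 3. It also limits both SLPI loci, which had 0 to 5 counts in the older libraries. The 3 goats an age and the thymus transcripts in every 1-month library limit all comparisons with 1 month.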
